A study of Mus musculus with 24 samples.

Results

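The 10 genes described here encode regulators of Hedgehog signalling and of hair follicle growth: Shh, Gli1, Ptch1, Lef1, Foxn1, Msx1, Msx2, Dlx3, Lgr5 and Sox9. They were chosen by symbol, and all 10 were found among the 18368 genes of the deposited table. RNA was measured in 24 skin libraries from 12 CD-1 mice, an outbred albino strain, aged 7 weeks and described by the labels as synchronised in telogen, the resting phase of the hair cycle. The mice fell into 3 groups of 4 by the body site that was sampled: abdomen, back, or cheek over the zygomatic arch. Each mouse gave a library from a 2 mm full-thickness punch wound at day 3 and a library from unwounded skin next to it. No mouse was genetically altered, all were shaved before wounding, and cheek mice received a single wound whereas abdomen and back mice received a pair. Since no mouse was sampled at more than 1 site, differences between sites are differences between groups of animals.

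Sonic hedgehog (Shh) is a secreted ligand that, in hair follicles, is made by epithelial cells of the growing bulb. It binds the receptor Ptch1, which releases Smo and activates the Gli factors, and both Gli1 and Ptch1 are themselves transcribed in response to the signal, so their levels are widely used as a readout of it. In growing follicles the Wnt effector Lef1 and the transcription factors Foxn1, Msx1, Msx2 and Dlx3 act in the matrix and in the differentiating shaft, whereas Lgr5 and Sox9 mark the stem and outer root sheath cells that are also present at rest.

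Values were in FPKM, fragments scaled for transcript length and for the number of fragments mapped in the library. Differences between groups were computed on log2(FPKM + 0.5), which understates the change of genes near or below 0.5 FPKM. A gene was tested in a fit if at least 4 of its libraries reached 0.5 FPKM. All 10 regulators were listed above 0 in all 24 libraries, and 9 of the 10 passed this filter for the comparisons of sites. Shh did not pass it there, but it passed for the wound effects, and it did so in part through the libraries in which it was high. The files hold no counts, so the absolute depth of each library and the counting error of the lowest values are unknown. Relative depth, estimated from genes at their lowest step above 0 FPKM, ran from 0.95 to 1.05 over the 24 libraries. The FPKM of all genes summed to between 490830 and 608888 per library. The labels do not state sex, and separate animals were the replicates.

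Members of the list that moved together invite a look at the sequence before their start sites. RefSeq promoters of build GRCm38.p6 were matched for 5 of the 10 genes (Lef1, Foxn1, Msx1, Msx2 and Ptch1), with 8 start sites in all. Neither the GLI word GACCACCCA, present in 0.253% of all 32851 promoter windows of 300 bases on either strand, nor the LEF/TCF word CTTTGAT, present in 3.73%, occurred in these 8 windows, which says only that these letters are not there. The homeodomain core TAATTA, which reads alike on both strands and was looked for after the sequences had been seen, occurred in 5.29% of all windows and in those of Msx2 and Foxn1. Msx2 and Foxn1 are printed here beside Msx1, itself a homeodomain gene like Msx2 but with a window free of the word. Unwounded cheek mouse 4 was the highest library for each of these genes, and also for Lef1, whose windows lack the word. A high level in that library was thus not particular to genes with the word. Each run gives the 250 bases before an annotated start, 5′ to 3′, with TAATTA in capitals. For Foxn1 this start lies inside the annotated gene (chr11:78357577-78386783), so part of its run, with the TAATTA, overlaps the gene.
Msx2 (chr13:53472781-53473030, minus strand): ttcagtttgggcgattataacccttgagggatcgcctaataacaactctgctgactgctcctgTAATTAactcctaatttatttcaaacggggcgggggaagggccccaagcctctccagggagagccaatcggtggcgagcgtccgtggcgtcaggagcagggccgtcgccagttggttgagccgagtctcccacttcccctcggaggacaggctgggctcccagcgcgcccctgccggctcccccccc
Foxn1 (chr11:78386609-78386858, minus strand): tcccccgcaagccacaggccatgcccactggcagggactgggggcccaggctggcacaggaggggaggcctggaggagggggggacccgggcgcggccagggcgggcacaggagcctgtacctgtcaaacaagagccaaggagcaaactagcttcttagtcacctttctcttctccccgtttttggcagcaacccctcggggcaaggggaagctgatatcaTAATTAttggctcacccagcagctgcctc
Msx1 (chr5:37824586-37824835, minus strand): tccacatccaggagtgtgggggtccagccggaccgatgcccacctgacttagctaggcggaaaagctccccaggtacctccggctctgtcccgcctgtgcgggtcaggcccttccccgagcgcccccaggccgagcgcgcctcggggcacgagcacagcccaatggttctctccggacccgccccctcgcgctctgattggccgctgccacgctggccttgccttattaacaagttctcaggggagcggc

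Unwounded cheek skin of mice 3 and 4 stood apart from the 10 other unwounded libraries, and this bears on nearly every result below. Shh was at 0.16, 0.13, 3.98 and 6.95 FPKM in unwounded cheek of mice 1 to 4. In unwounded abdomen it was at 0.07, 0.09, 0.21 and 0.48 FPKM. In unwounded back it was at 1.1, 0.14, 0.33 and 0.02 FPKM. Cheek mice 3 and 4 thus held the highest levels of Shh in the series, with back mouse 1 next, and cheek mice 1 and 2 lay within the range of the abdomen libraries. Against the median of the 10 other unwounded libraries, Shh was 26.5 times as high in cheek mouse 3 and 46.3 times as high in cheek mouse 4.

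The Hedgehog targets followed the ligand library by library. Gli1, the transcription factor that carries the activating signal, was at 1.55, 3.00, 10.88 and 12.35 FPKM in unwounded cheek. Its 10 other unwounded levels ended at 4.19 FPKM, so both high cheek libraries lay beyond them, by 3.76 and 4.27 times the median of the 10. Ptch1, the receptor, was at 3.66, 4.64, 13.47 and 16.7 FPKM in unwounded cheek, 3.46 and 4.29 times that median in mice 3 and 4. For these targets cheek mouse 3 reached 88.1% (Gli1) and 80.7% (Ptch1) of the level in cheek mouse 4. Across the 12 unwounded libraries, the log2 levels of Shh and Gli1 had a Pearson r of 0.94 (Spearman rho 0.88), and r was 0.73 over the 10 libraries without cheek mice 3 and 4. For Shh and Ptch1 r was 0.95 (rho 0.76), and 0.60 over the 10. These are descriptions over libraries that share their processing, with 2 of them far from the others.

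The transcription factors of the matrix and shaft split cheek mouse 3 from cheek mouse 4. Msx2 was at 1.64, 1.46, 5.11 and 34.25 FPKM in unwounded cheek of mice 1 to 4. Dlx3, a homeodomain factor of shaft differentiation, was at 9.25, 7.35, 22.95 and 100.72 FPKM there. Lef1 was at 0.97, 0.90, 3.09 and 14.46 FPKM. Cheek mouse 4 was the highest library for each of them and cheek mouse 3 the second, at 14.9% (Msx2), 22.8% (Dlx3) and 21.4% (Lef1) of the level in mouse 4. Foxn1, the factor mutated in nude mice, was at 2.47, 1.73, 2.81 and 18.11 FPKM. Only cheek mouse 4 was raised for Foxn1, by 6.74 times the median of the 10 other libraries, whereas cheek mouse 3 lay at 1.05 times that median, inside their range. Cheek mouse 3 thus came close to mouse 4 for Gli1 and Ptch1 and remained far below it for Msx2, Dlx3, Lef1 and Foxn1.

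The stem cell genes stood least above the other libraries in cheek mouse 4. Lgr5, a receptor for R-spondins, was at 9.11, 8.71, 11.44 and 13.98 FPKM in unwounded cheek, and its highest unwounded level, 17.11 FPKM, was in abdomen mouse 2. Sox9 was at 14.74, 11.81, 18.75 and 24.24 FPKM, and only cheek mouse 4 exceeded the other unwounded libraries, by 1.56 times their median. Msx1 was at 4.60, 3.24, 4.37 and 12.7 FPKM in unwounded cheek, so that cheek mouse 1 was slightly above cheek mouse 3 and only mouse 4 was far from the rest.

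Counted over the list, cheek mouse 3 exceeded each of the 10 other unwounded libraries for 6 of 10 regulators (Shh, Gli1, Ptch1, Lef1, Msx2 and Dlx3), compared with 17.0% of all 13956 genes tested. Cheek mouse 4 did so for 9 of 10, all but Lgr5, compared with 24.0%. Both did so for 6 of 10, compared with 11.9%. These shares describe 2 libraries that were singled out after their values had been seen, and no test was made on them.

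**Figure D1:**
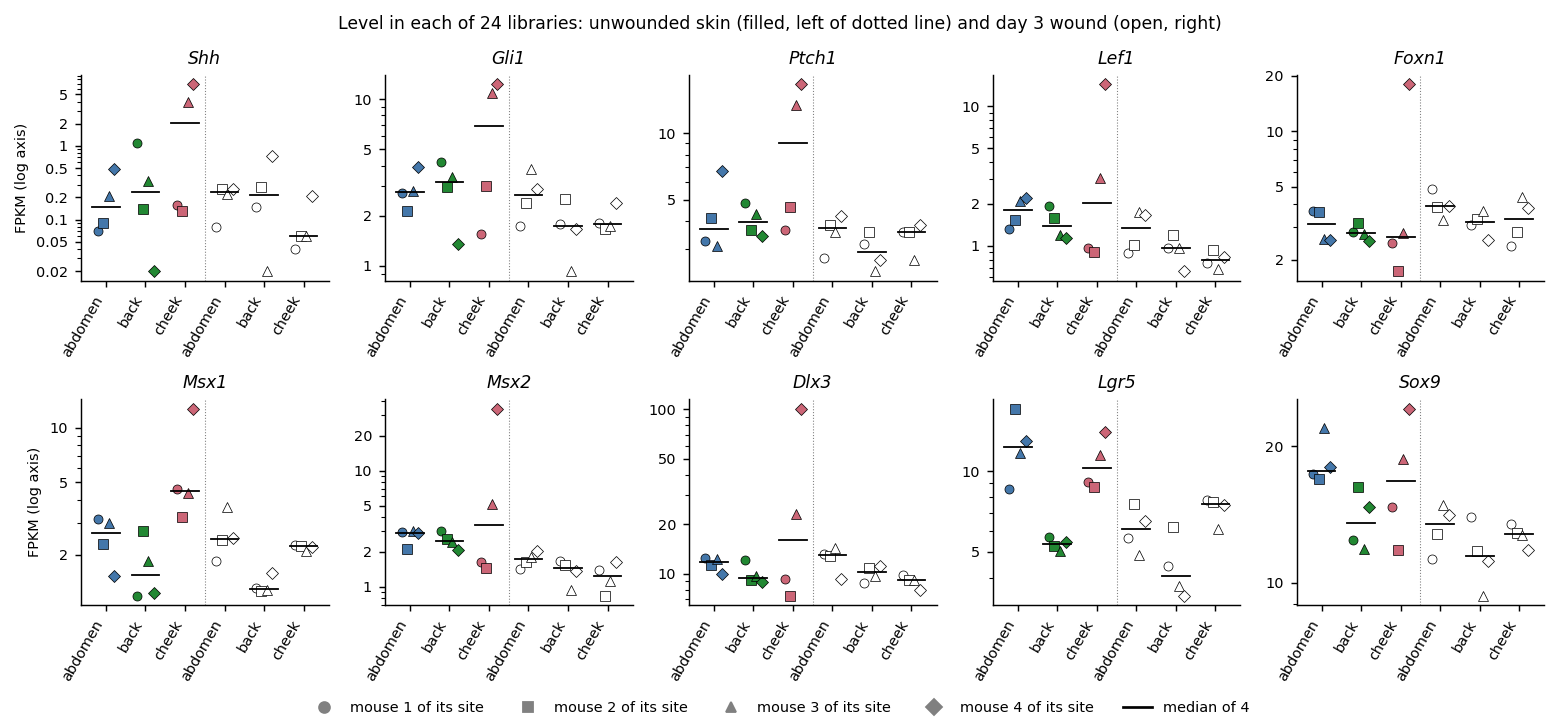
FPKM of the 10 regulators on log axes in each of the 24 libraries, by site, with unwounded skin filled and left of the dotted line and day 3 wounds open and to the right; marker shapes stand for mouse 1 to 4 of each site and bars for the median of 4 libraries. The unwounded cheek libraries of mice 3 and 4 stand above the others for Shh, Gli1, Ptch1, Lef1, Msx2 and Dlx3, and none of the wound libraries reaches them.

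Other Hedgehog genes, listed for their place in the pathway, showed the same pair of libraries at the top for several of its transducers. Of 14 such genes, 6 were higher in cheek mouse 3, and 7 in cheek mouse 4, than in any of the 10 other unwounded libraries. Over all genes tested the shares were 17.0% and 24.0%. Hhip, a target that binds and sequesters the ligand, was at 1.05 FPKM in cheek mouse 3 and 1.73 FPKM in cheek mouse 4, and at 0.14 to 0.68 FPKM in the 10 others. Gli2, Kif7, Sufu, Smo and Hhat were the other genes above in both libraries, and Gli3 in mouse 4 only. Among the co-receptors, Boc, Cdon and Gas1 were not raised in either library. The other ligands stayed low, with Ihh at or below 0.2 FPKM and Dhh between 0.41 and 1.15 FPKM in the 12 unwounded libraries, so that Shh was the ligand that differed.

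Markers of growing follicles moved with these libraries, which bears on the label of telogen. A list of 14 genes of the hair shaft and inner root sheath, the structures built only in growing follicles, summed to 6812.99 FPKM in unwounded cheek mouse 4 and to 41.24 FPKM in unwounded cheek mouse 3. The sum was 94.85 FPKM in unwounded back mouse 2 and 28.04 FPKM in its wound, and between 2.12 and 4.46 FPKM in the other 20 libraries. All 14 genes were above the 10 other unwounded libraries in cheek mouse 4, with Krt71, a keratin of the inner root sheath, at 1651 FPKM. In cheek mouse 3 only 4 of the 14 were above them. Shaft and inner root sheath genes were thus abundant where Foxn1, Msx2 and Dlx3 were highest, whereas the raised Gli1 and Ptch1 of cheek mouse 3 came with little of them. Unwounded back mouse 2 showed the reverse, with more shaft and inner root sheath RNA than cheek mouse 3 but with Shh at 0.14 FPKM, Gli1 at 2.97 FPKM and Msx2 at 2.56 FPKM. All 5 genes of a proliferation list (Mki67, Top2a, Ccnb1, Mcm2 and Mybl2) were also above the 10 others in both cheek libraries, summing to 56.59 and 82.64 FPKM compared with at most 33.3 FPKM. The study named the same 5 genes from these libraries, so their levels are no independent evidence. Of 18 other follicle transcription regulators, 10 in cheek mouse 3 and 11 in cheek mouse 4 were above the others. Over all genes tested the shares were 17.0% and 24.0%. The regulators above included Hoxc13 at 8.27 and 40.69 FPKM and Lhx2 at 44.54 and 44.42 FPKM. Of 8 genes listed for the resting bulge and germ, 2 were above in each library, compared with the same shares. They were Lgr6 and Krt24 in mouse 3 and Lgr6 and Fgf5 in mouse 4. Fgf5 is not specific to resting follicles. Its level in mouse 4, 2.72 FPKM against 0.1 to 0.66 FPKM in the 10 others, is therefore not read as a sign of rest. Others lay below all 10 libraries in cheek mouse 4. They were Cd34 at 164.96 FPKM (lowest of the 10 at 236.02), Krt15 at 805.17 (873.49), Fgf18 at 3.07 (8.55) and Col17a1 at 121.49 (141.83). In cheek mouse 3 Cd34 was also below them, at 205.93 FPKM. The part of hair cycle stage, or of the follicles that a punch happened to hold, in the values of cheek mice 3 and 4 was not tested.

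**Figure D2:**
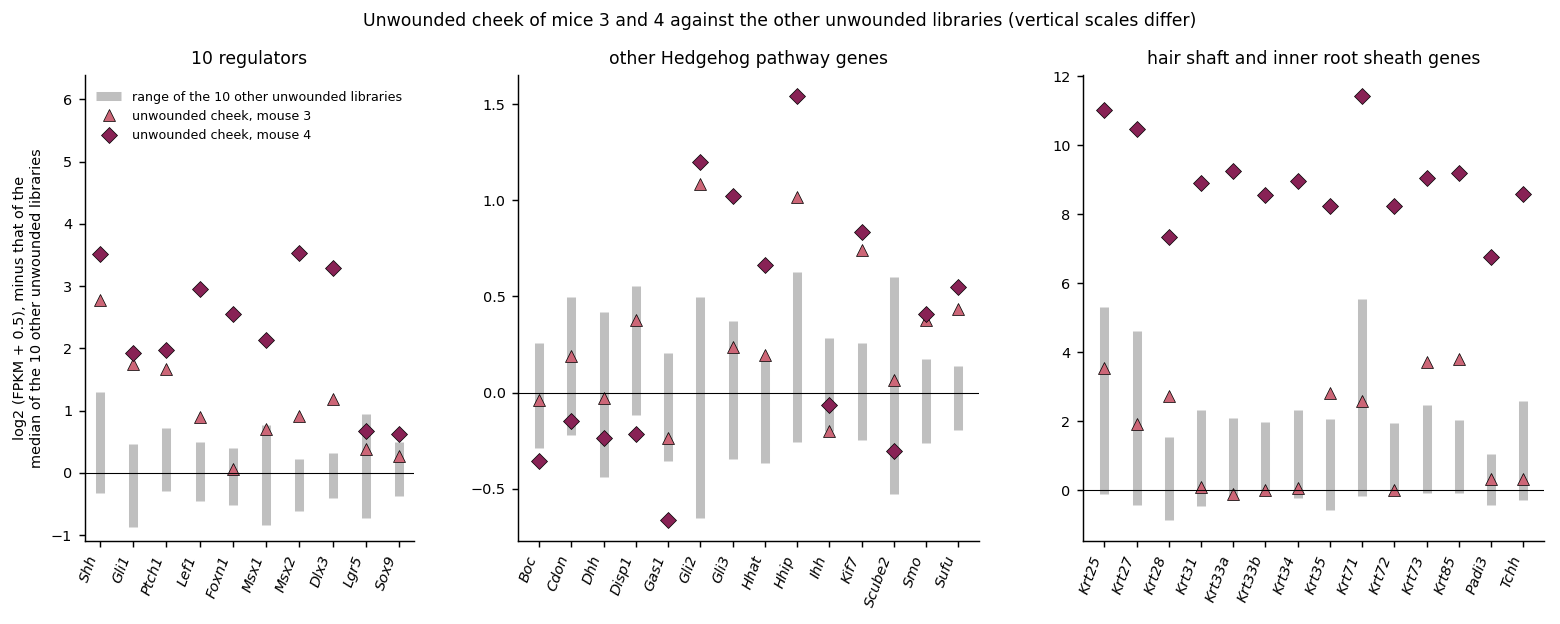
Unwounded cheek of mouse 3 (triangles) and mouse 4 (diamonds) for the 10 regulators, 14 other Hedgehog pathway genes and 14 hair shaft and inner root sheath genes, as the log2 of FPKM + 0.5 minus that of the median of the 10 other unwounded libraries, whose range is the grey bar; the vertical scales differ between panels. Both cheek libraries lie together for Gli1, Ptch1 and Gli2, and far apart for Foxn1, Msx2 and all 14 shaft and inner root sheath genes.

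**Figure D3:**
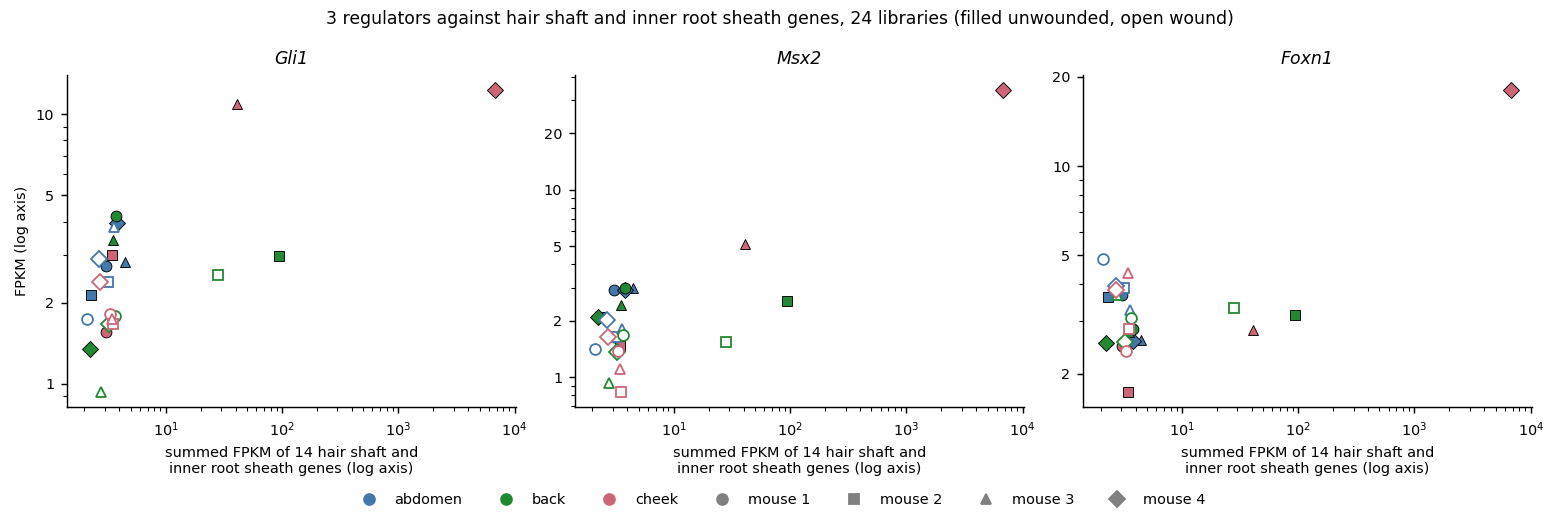
FPKM of Gli1, Msx2 and Foxn1 against the summed FPKM of 14 hair shaft and inner root sheath genes, both on log axes, in 24 libraries coloured by site, with mice 1 to 4 by marker shape, unwounded skin filled and wounds open. Unwounded cheek mouse 4 is at the top right of all 3 panels, and unwounded cheek mouse 3 is high for Gli1 at a sum below that of unwounded back mouse 2.

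The comparison of unwounded sites asked whether the regulators differ between body sites in unwounded skin. Lgr5 did. It was at 8.54, 17.11, 11.69 and 12.99 FPKM in unwounded abdomen. In unwounded back it was at 5.67, 5.24, 5.04 and 5.42 FPKM. All 4 back libraries lay below all 4 abdomen libraries, as for 10.7% of the 13956 genes tested. The difference between back and abdomen was -1.12 on the log2 scale (SE 0.19, adjusted p = 0.00858, limma), among 2.67% of genes called in this comparison. Without cheek mice 3 and 4 it was called as well (adjusted p = 0.00602; 4.27% of genes), and it was called in all 12 fits that left out a single mouse (adjusted p up to 0.0366). The unwounded cheek libraries also lay above the back libraries for Lgr5, by 0.93 (SE 0.19, adjusted p = 0.0327, limma; 1.05% of genes called). That call depended on the libraries used. The difference was 0.69 without cheek mice 3 and 4 (adjusted p = 0.262), and 6 of the 12 fits without a single mouse lost the call, those without any of the 4 back mice or without cheek mouse 3 or 4 (adjusted p from 0.0667 to 0.103). Quantile normalization also ended it (adjusted p = 0.0640). The sums of the resting bulge and germ list were 1579.86 to 1759.37 FPKM in unwounded back and 1972.4 to 2308.61 FPKM in unwounded abdomen. Those of a dermal papilla list were 78.74 to 98.11 and 113.25 to 135.52 FPKM. Skeletal muscle sums lay mostly the other way, at 11972.9 to 18887.5 and 434.15 to 13416.3 FPKM. The part of such tissue content in the difference of Lgr5 was not tested.

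For the other regulators no difference between unwounded sites was called. Sox9 was at 17.36, 16.93, 21.96 and 18.02 FPKM in unwounded abdomen and at 12.46, 16.28, 11.91 and 14.72 FPKM in unwounded back. The groups did not overlap, but the difference of -0.41 (SE 0.19) did not pass the test over all genes (adjusted p = 0.215, limma). Msx1 was at 3.14, 2.29, 2.98 and 1.54 FPKM in unwounded abdomen and at 1.19, 2.72, 1.85 and 1.24 FPKM in unwounded back. Every unwounded cheek library, from 3.24 to 12.7 FPKM, was above every library of the other sites, as for 6.16% of genes against abdomen and 12.4% against back. The differences were 1.02 from abdomen (SE 0.36, adjusted p = 0.146) and 1.45 from back (SE 0.36, adjusted p = 0.0808), neither passing 0.05 in limma. Without cheek mice 3 and 4 they were 0.58 (adjusted p = 0.312) and 1.01 (adjusted p = 0.265). An exact permutation test of the 4 libraries against 4 gives p = 0.0286 for any pair of groups that do not overlap, which is the smallest it can give. This test was run for 10 regulators in 6 comparisons of sites, and 7 of the 60 did not overlap. Over all genes the groups did not overlap for 13.3%, 10.6% and 14.6% between unwounded back and abdomen, cheek and abdomen, and cheek and back, and for 9.16%, 19.0% and 21.3% between the same sites in wounds, so the count for the regulators is near the background.

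The Hedgehog genes themselves did not pass the test between unwounded sites. Gli1 differed between cheek and abdomen, where 2.57% of all genes were called, by 0.76 (SE 0.55, adjusted p = 0.487), and Ptch1 by 0.88 (SE 0.42, adjusted p = 0.288, limma), with the cheek libraries spread from the lowest values to the highest. Without cheek mice 3 and 4 the same differences were -0.32 for Gli1 and 0.01 for Ptch1. Msx2, Dlx3 and Lef1 turned from 0.74, 0.78 and 0.52 to -0.65, -0.45 and -0.65 when those mice were left out, and none was called either way. Between cheek and abdomen, 1 of the 9 regulators tested (Msx1, higher in cheek) had an unadjusted p under 0.05 in limma (19.0% of all genes). Without cheek mice 3 and 4 it was 5 of 9 (19.5% of all genes). Those 5 were all lower in cheek: Msx2, Lef1, Dlx3, Foxn1 (-0.48) and Sox9 (-0.47). The positive mean difference of cheek for Gli1, Ptch1, Msx2, Dlx3 and Lef1 came from 2 of its 4 libraries, since it was 0.01 or lower without them. Of the 14 other Hedgehog genes, 12 were tested and limma called none between unwounded sites, with 0, 2 and 4 of them at an unadjusted p under 0.05 for back against abdomen, cheek against abdomen and cheek against back, where 22.0%, 19.0% and 21.6% of all genes were. Of the 18 other follicle regulators, 16 were tested and none was called (2, 5 and 4 at an unadjusted p under 0.05). Over the 9 regulators tested, the median difference between cheek and abdomen was 0.74, against 0.03 over all genes, and it was -0.45 without cheek mice 3 and 4, against -0.03.

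The regulators were next compared between the sites of day 3 wounds. Shh was at 0.08, 0.26, 0.22 and 0.26 FPKM in abdomen wounds, at 0.15, 0.28, 0.02 and 0.72 FPKM in back wounds and at 0.04, 0.06, 0.06 and 0.21 FPKM in cheek wounds. The wounds of cheek mice 3 and 4 held the low levels of Hedgehog targets seen elsewhere, with Gli1 at 1.74 and 2.38 FPKM, Ptch1 at 2.66 and 3.82 FPKM, and Dlx3 at 9.24 and 8.02 FPKM. For these genes the wounds of cheek mice 3 and 4 did not stand apart from the other wound libraries. Only Msx1 was called between wound sites. It was at 1.86, 2.41, 3.67 and 2.48 FPKM in abdomen wounds. In back wounds it was at 1.32, 1.26, 1.29 and 1.59 FPKM, all below the abdomen wounds (5.33% of 14023 genes). In cheek wounds it was at 2.28, 2.24, 2.10 and 2.21 FPKM, within the abdomen range. Back differed from abdomen by -0.71 (SE 0.15, adjusted p = 0.0440, limma; 1.27% of genes called). The call was close to the threshold, with adjusted p = 0.0704 without cheek mice 3 and 4. Median-ratio scaling (adjusted p = 0.0526), quantile normalization (0.0539), no filter (0.0553) and a fit on all 24 libraries (0.264) also ended it, and only 1 of the 12 fits without a single mouse retained it, although these give values from -0.83 to -0.56. Cheek wounds were all above back wounds for Msx1 (17.2% of genes), by 0.54 (SE 0.15, adjusted p = 0.0661). Msx1 is also among the genes the study picked from these libraries, so its levels are no independent evidence. Lgr5 in cheek wounds, at 6.06 to 7.79 FPKM, overlapped back wounds, at 3.42 to 6.16 FPKM, in a single library, and the difference of 0.68 (SE 0.17) missed the threshold (adjusted p = 0.0553; 2.5% of genes called). Between cheek and abdomen wounds no regulator passed, where 10.8% of genes did, and Dlx3 came nearest at -0.42 (SE 0.12, adjusted p = 0.0502). Dlx3 passed with a pseudocount of 1, a filter of 1 FPKM or either scaling (adjusted p from 0.0353 to 0.0494). For each of the 2 comparisons with cheek wounds, 2 of 9 regulators had an unadjusted p under 0.05 in limma, compared with 31.6% of genes against abdomen and 26.1% against back.

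Wounds were then compared with unwounded skin of the same mouse. Msx2 was lower in the wound of all 12 mice. It went from 2.93, 2.09, 3.00 and 2.90 FPKM in unwounded abdomen to 1.41, 1.63, 1.81 and 2.01 FPKM in the wounds. In back it went from 2.99, 2.56, 2.42 and 2.08 FPKM to 1.67, 1.54, 0.93 and 1.36 FPKM. In both sites all wounds lay below all unwounded libraries, as for 11.0% of genes in abdomen and 15.4% in back. In cheek mice 1 and 2 the change was from 1.64 to 1.38 FPKM and from 1.46 to 0.83 FPKM, and in mice 3 and 4 from 5.11 to 1.11 FPKM and from 34.25 to 1.64 FPKM. The mean within-mouse change of Msx2 was -0.96 ± 1.05 on the log2 scale (SD, n = 12; exact sign-change test, two-sided p = 0.000488, the smallest that 12 pairs can give), and 9.81% of the 14423 genes tested were lower in all 12 mice. Without cheek mice 3 and 4 the mean change was -0.57 and all 10 mice remained lower (exact p = 0.00195, the smallest for 10 pairs; 11.4% of genes). In whole skin, fewer cells of a type and less RNA per cell cannot be told apart.

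Lef1, Ptch1 and Lgr5 were each lower in the wound of 11 of 12 mice, and 17.6% of genes were lower in at least 11. Lef1 went from 1.32, 1.53, 2.10 and 2.21 FPKM to 0.89, 1.02, 1.74 and 1.66 FPKM in abdomen, and cheek mouse 2 was its exception, at 0.90 and 0.93 FPKM. Its mean change was -0.70 ± 0.97 (SD, n = 12; exact p = 0.000977), and -0.33 over the 10 mice without cheek mice 3 and 4 (exact p = 0.00391). Ptch1 changed by -0.57 ± 0.75 (SD, n = 12; exact p = 0.00439) and by -0.27 over those 10 mice (exact p = 0.0176), with abdomen mouse 3 its exception. Ptch1 fell by 2.14 and 1.99 in cheek mice 3 and 4 and by at most 0.74, in back mouse 3, in any other mouse. Lgr5 changed by -0.59 ± 0.43 (SD, n = 12; exact p = 0.00195), and by -0.53 over the 10 mice (exact p = 0.00781), with back mouse 2 its exception. Sox9 was lower in 10 of 12 mice (26.2% of genes), by 0.37 ± 0.32 (SD, n = 12; exact p = 0.00342), and in 8 of the 10 mice (28.5% of genes), with a change of -0.29 (exact p = 0.0137). Lef1, Ptch1 and Lgr5 were lower in 9 of these 10 mice, and 19.4% of genes were lower in at least 9.

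Gli1, Msx1 and Shh had smaller mean changes without cheek mice 3 and 4, and none of them then had an exact p under 0.05. Gli1 was lower in 8 of 12 wounds, with a mean change of -0.66 ± 0.92 (SD, n = 12; exact p = 0.0278), and its change was -0.34 in the remaining 10 mice, 6 of them lower (exact p = 0.111). In those mice wound and unwounded levels of Gli1 overlapped within the abdomen, with 1.74, 2.39, 3.82 and 2.91 FPKM in wounds and 2.74, 2.14, 2.82 and 3.94 FPKM in unwounded skin. Msx1 was lower in 7 of 12 wounds, 4 of these in cheek (mean change -0.43 ± 0.77, SD, n = 12; exact p = 0.0645). Its change was -0.20 in the remaining 10 mice, 5 of them lower (exact p = 0.242). Cheek mice 1 and 2 were among those lower, at -0.88 and -0.45. Shh was lower in 7 of 12, with a mean change of -0.61 ± 1.36 (SD, n = 12; exact p = 0.171) and of -0.09 without the 2 mice (exact p = 0.685). In cheek mice 3 and 4 Shh went from 3.98 to 0.06 FPKM and from 6.95 to 0.21 FPKM. In cheek mice 1 and 2 it was also lower in the wound, going from 0.16 to 0.04 FPKM and from 0.13 to 0.06 FPKM.

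Foxn1 went the other way in most mice. In abdomen it was at 3.68, 3.63, 2.60 and 2.57 FPKM in unwounded skin and at 4.85, 3.87, 3.28 and 3.94 FPKM in the wounds, higher in every mouse. In back it went from 2.83, 3.15, 2.77 and 2.53 FPKM to 3.08, 3.33, 3.67 and 2.55 FPKM, again higher in every mouse. In cheek it went from 2.47, 1.73, 2.81 and 18.11 FPKM to 2.38, 2.82, 4.38 and 3.81 FPKM, so that it was far lower in the wound of mouse 4 and slightly lower in that of mouse 1. Higher in 10 of 12 wounds (30.0% of genes), Foxn1 had a mean change of 0.06 ± 0.72 (SD, n = 12; exact p = 0.875) because of cheek mouse 4. Without cheek mice 3 and 4 it was higher in 9 of 10 mice (28.3% of genes) with a mean change of 0.23 (exact p = 0.00586). Those mice were set aside after the values had been seen, and mouse 4 held the largest fall of Foxn1 (-2.11). This p is therefore a description and no test of a rise. Dlx3 was lower in 4 of 12 mice and higher in 7 (exact p = 0.438), and apart from cheek mice 3 and 4 its wound levels, from 8.79 to 14.35 FPKM, overlapped its unwounded levels, from 7.35 to 12.44 FPKM.

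**Figure D4:**
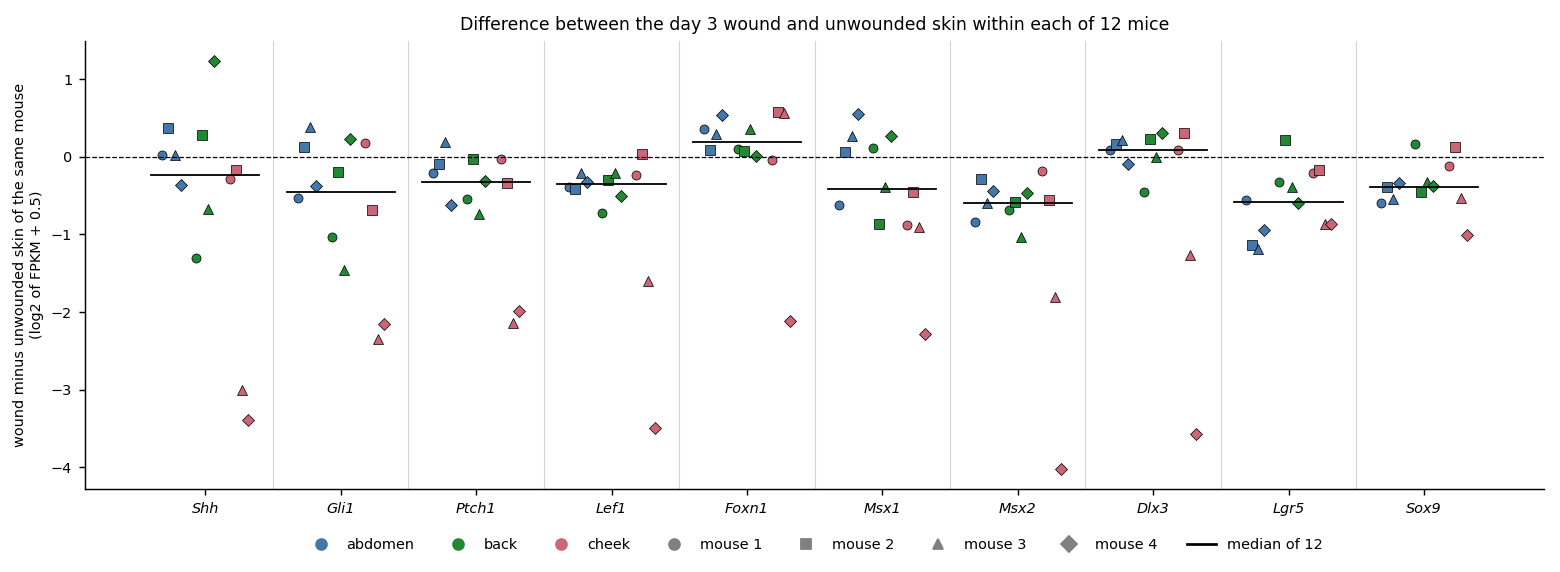
Wound minus unwounded skin of the same mouse, on the log2 of FPKM + 0.5, for the 10 regulators in 12 mice, coloured by site, with mice 1 to 4 by marker shape and a bar for the median of 12. All 12 points of Msx2 are below the dashed line at 0, 10 of 12 points of Foxn1 are above it, and cheek mice 3 and 4 give the lowest points of Shh, Gli1, Ptch1, Lef1, Msx2 and Dlx3.

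In the fit over all genes, averaged over sites, 7 of 10 regulators fell at an adjusted p under 0.05 (Gli1, Ptch1, Lef1, Msx1, Msx2, Lgr5 and Sox9), and 1 of them, Lgr5, at the threshold of 0.001 used for wound effects (-0.59, SE 0.09, adjusted p = 0.0001, limma). Over all 14423 genes, 29.4% fell at 0.05 and 14.4% at 0.001. Msx2 fell by 0.96 (SE 0.27, adjusted p = 0.00849) and Sox9 by 0.37 (SE 0.09, adjusted p = 0.0025). Without cheek mice 3 and 4 the fit tested 9 of the 10, since Shh no longer passed the filter. It then called Lef1, Ptch1, Msx2, Lgr5 and Sox9 lower and Foxn1 higher at 0.05, compared with 25.3% and 34.5% of genes, and Gli1 (adjusted p = 0.136) and Msx1 (adjusted p = 0.114) were lost. Gli1 and Msx1 each lost the call at 0.05 in 4 of the 12 fits without a single mouse (adjusted p up to 0.0543 and 0.0736), and Lef1 in 2 (up to 0.0523), whereas Ptch1, Msx2, Lgr5 and Sox9 passed in all 12. With cheek mice 3 and 4 both left out, Msx2 passed 0.001 (-0.54, adjusted p = 0.000359), as did Lgr5 (-0.48, adjusted p = 0.000879), where 10.2% of genes fell. These mice were set aside after their values had been seen, so calls gained without them, here and below, are descriptions.

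Site by site, Lgr5 was the only regulator to pass 0.001, in the abdomen. Its level went from 8.54, 17.11, 11.69 and 12.99 FPKM to 5.63, 7.54, 4.87 and 6.49 FPKM there, all wounds below all unwounded libraries, a change of -0.96 (SE 0.16, adjusted p = 0.00081, limma; 1.04% of genes fell at this threshold). It passed 0.05 in all 12 fits that left out a single mouse (adjusted p up to 0.00667), but 0.001 in only 4 of them, those without back mouse 2 or without cheek mouse 2, 3 or 4. Sox9 fell in the abdomen at 0.05 (-0.47, SE 0.15, adjusted p = 0.030; 16.0% of genes). That call held in 8 of the 12 fits without a single mouse (adjusted p up to 0.0980, limma). In the back limma called no regulator at 0.05, where 17.9% of genes fell, and 0 of 10 had an unadjusted p under 0.05, compared with 53.5% of genes. In the cheek 6 of the 9 regulators other than Shh fell at 0.05 and none at 0.001, against 16.9% and 2.19% of genes, and 8 of the 9 had an unadjusted p under 0.05, against 46.4%. Msx2 fell by 1.64, Lef1 by 1.33, Gli1 by 1.25, Msx1 by 1.13, Ptch1 by 1.13 and Lgr5 by 0.53. Shh reached 0.5 FPKM in only 4 of the 24 libraries, 2 of them unwounded cheek of mice 3 and 4, so it entered the fit through the libraries in which it was high, and its fitted change of -1.71 (SE 0.54) is given as a description. Of these, Msx1 passed 0.05 in all 12 fits without a single mouse (adjusted p up to 0.0286). Leaving out cheek mouse 3 ended the calls of Gli1 (adjusted p = 0.130), Lef1 (0.0996), Lgr5 (0.0993), Ptch1 (0.0752) and Msx2 (0.0613), and leaving out cheek mouse 4 those of Gli1 (0.110), Lef1 (0.0725), Lgr5 (0.0806) and Ptch1 (0.0652). Shh failed the filter without either of these mice. None of the cheek effects passed 0.05 without both, where 8.29% of genes fell (lowest adjusted p = 0.126, for Msx1, the only 1 of the 9 tested with an unadjusted p under 0.05, compared with 39.5% of genes). Without those mice 16.8% of genes fell at 0.05 in the abdomen and 18.5% in the back. Msx2 was then among them in the abdomen (adjusted p = 0.00944) and the back (adjusted p = 0.00153), as was Lef1 (adjusted p = 0.0457 and 0.0109), and Ptch1 in the back (adjusted p = 0.0381).

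Whether the wound effect differed between sites was tested by an F test of the 3 effects, which called 0.0208% of genes. No regulator passed (adjusted p from 0.316 for Msx1 to 0.797 for Sox9, limma), and 2 of them, Msx1 and Lgr5, had an unadjusted p under 0.05 (12.9% of genes). The larger fall of the Hedgehog genes in cheek was not shown to differ from that in the abdomen or back. With 4 mice per site, the exact sign-change test within a site cannot go below p = 0.125.

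Other genes of the pathway and of the follicle moved in both directions in the wounds, where 29.4% of all genes fell and 33.3% rose at 0.05 in the mean over sites. Of 12 other Hedgehog genes tested, 5 fell (Boc, Cdon, Disp1, Gli2 and Smo) and 3 rose (Gas1, Hhat and Sufu) at 0.05 in the mean over sites, and Gli2 and Gas1 were lost without cheek mice 3 and 4. The co-receptor Boc fell by 0.49 (SE 0.07, adjusted p = 3.37e-05). Hhat, the acyltransferase that lipidates the ligand, rose by 0.50 (SE 0.08, adjusted p = 9.23e-05). Of 16 other follicle transcription regulators tested, 8 fell and 4 rose. Markers of the resting bulge and germ moved with the regulators: 6 of 8 fell at 0.001 (Cd34, Col17a1, Fgf18, Krt15, Krt24 and Lgr6), among them Krt15 by 0.88 (SE 0.09, adjusted p = 3.81e-06), and 1, Postn, rose at 0.05. The summed level of these 8 genes was 1328 to 2308.61 FPKM in unwounded libraries and 988.38 to 1555.25 FPKM in wounds. Of 10 genes of the dermal papilla, 2 rose (Crabp1 and Sox18) and 5 fell at 0.05, and their sum, unlike that of the bulge, was higher in wounds, at 156.71 to 298.07 FPKM, than in unwounded libraries, at 78.74 to 155.28 FPKM. That sum weighs the abundant genes most, and both genes that rose are among these. Medians over the 10 other unwounded libraries were 34.7 FPKM for Enpp2, 28.7 FPKM for Crabp1 and 22.3 FPKM for Sox18. It is therefore not a measure of papilla content. Markers of other cell types also moved. All 6 myeloid genes rose, with sums of 393.71 to 877.81 FPKM in unwounded skin and 1519 to 3528.74 FPKM in wounds. All 4 keratins of wound epidermis rose, with sums of 387.39 to 1284.99 FPKM and 2107.31 to 14682.3 FPKM, and of 7 genes of the interfollicular epidermis 3 rose and 2 fell. Among 5 fibroblast genes 3 fell and 1 rose, with sums of 6605.78 to 17567.5 FPKM in unwounded skin and 3939.97 to 9215.76 FPKM in wounds. All 5 skeletal muscle genes and all 4 adipocyte genes fell. The part of follicle content or of these other cell types in the fall of Msx2, Lef1, Ptch1, Lgr5 and Sox9 was not tested. All 5 proliferation genes rose at 0.05 in wounds, whereas Shh, Gli1 and Ptch1, which were high together with them in unwounded cheek of mice 3 and 4, did not.

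The genes whose unwounded levels were most like those of each regulator, by Pearson r over the 12 unwounded libraries, split the list again. For Gli1 they included Tyrp1 (r = 0.96, rho 0.92), a melanocyte gene, and without cheek mice 3 and 4 this r was 0.90. For Shh they included Gtf2ird1 (r = 0.97, rho 0.73), which was the nearest, and Foxm1 (r = 0.97, rho 0.85), a cell cycle factor. For Ptch1 they included Knl1 (r = 0.96, rho 0.82), a kinetochore gene. Lef1, Msx2 and Dlx3 were linked to one another and to Hoxc13, with r of 0.98 for Lef1 and Msx2, 0.98 for Msx2 and Dlx3 and 0.99 for Dlx3 and Hoxc13, falling to 0.84, 0.77 and 0.75 without cheek mice 3 and 4. Foxn1, Msx1, Lgr5 and Sox9 had none of these genes among the 3 nearest. Foxn1 was nearest to Bambi (r = 0.97, rho 0.76, and 0.57 without the 2 libraries farthest from the median of Foxn1). Msx1 was nearest to Cmss1 (r = 0.97, rho 0.97, and 0.94 likewise). Lgr5 was nearest to Dusp16 (r = 0.97, rho 0.95, and 0.97 without the 2 libraries farthest from the median of Lgr5), and Sox9 to Micalcl (r = 0.96, rho 0.96, and 0.95 likewise). The libraries share their processing, the nearest genes were picked from all genes tested, and 2 libraries set much of the higher values.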

How the data were processed

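Whole skin taken by 2 mm punch was sequenced from 12 mice (24 libraries). Per the labels and the study's methods, the authors' provider mapped paired 100-base reads to GRCm38/mm10 with HISAT2, aligned them to transcripts with Bowtie2 2.2.5 and quantified them with RSEM 1.2.12. The deposited FPKM values carry 2 decimals and no counts, so absolute depth is unknown. A table of the authors' own 9 comparisons (18 columns, log2 ratios with their adjusted p) was not used. Here log2(FPKM + 0.5) was fitted with limma 3.58.1 in R 4.3.3 (trend and robust moderation, statmod 1.5.0), with a gene kept where 4 or more libraries of its fit reached 0.5 FPKM: sites within the 12 libraries of a state (threshold 0.05), wound effects over 24 libraries with a term for each mouse (threshold 0.001, and 0.05), and an F test of their difference, with Benjamini-Hochberg adjustment over all genes tested. The exact sign-change test permuted within-mouse differences of single regulators, 10 in all. The fit was tested on simulated data.

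Samples were grouped by label. Wound and unwounded libraries of a mouse deviated together from their group means (mean r 0.322 in abdomen, 0.348 in back and 0.281 in cheek, compared with -0.108, -0.116 and -0.0958 for other pairs), and they come from the same animal. Mouse numbers are shared across sites by different animals. The regulators and gene lists were chosen with earlier results of these data known. A listed gene is not reported here. Text names every regulator, some of the genes of each list that passed or stood apart, and the gene most like each regulator by r. Alternatives tried were pseudocounts of 0.1 and 1, no filter and a filter of 1 FPKM, median-ratio and quantile scaling, no moderation, other sets of libraries, the mouse number as a block, and leaving out each mouse; leaving out cheek mice 3 and 4 was added after the data were seen. Promoters come from RefSeq (GRCm38.p6).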

Additional observations from a re-analysis of the deposited data

Results flagged for a closer look

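A library far from the 3 others of its group in FPKM was found in 7 of 60 groups of 4 (10 regulators in 6 groups). About 3 would be so by chance at 1 in 20, if values were normally distributed and the groups separate. Distances were taken on FPKM, not on the log2 levels used elsewhere. On log2 levels a gap below a high library is smaller relative to the range. Regulators measured in the same library are not separate, so 7 is not a test against 3. Of the 7, 5 were unwounded cheek of mouse 4: Lef1 at 14.46 FPKM, Foxn1 at 18.11 FPKM, Msx1 at 12.7 FPKM, Msx2 at 34.25 FPKM and Dlx3 at 100.72 FPKM. The nearest library of the group was at 3.09, 2.81, 4.60, 5.11 and 22.95 FPKM. Shh, Gli1 and Ptch1 were not among them in unwounded cheek, since mouse 3 lay beside mouse 4. Shh in the wound of cheek mouse 4, at 0.21 FPKM, stood off from 0.06 FPKM in the next library. Msx2 in unwounded abdomen of mouse 2, at 2.09 FPKM, lay below the other 3, which were between 2.90 and 3.00 FPKM.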

How the results depend on the processing

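Of 112 numbers of genes called under settings other than single mice left out, 79 stayed near the main number and 33 moved. Among the 19 pairs of a regulator and a comparison with an adjusted p under 0.05, no setting turned the direction, and of the settings other than single mice left out, 167 outcomes were on the same side of the threshold, 12 were weaker and 17 stronger, the last through the threshold of 0.05 except Msx2 without cheek mice 3 and 4 and Sox9 with either scaling in the mean over sites. Differences that were not called did turn, as between unwounded cheek and abdomen without cheek mice 3 and 4. Lgr5 in abdomen wounds missed 0.001 with no filter, with no moderation and on the 8 libraries of the site (adjusted p up to 0.00427). Regulators also gained calls at 0.05: Msx1 between unwounded cheek and the other sites on all 24 libraries (adjusted p = 0.0284 and 0.00617), Dlx3 between cheek and abdomen wounds, Sox9 in cheek wounds with either scaling and in back wounds with quantile normalization, and, on the 8 libraries of a site, Msx2 in abdomen and back wounds and Lef1 and Ptch1 in back wounds. Regulators with an exact sign-change p under 0.05 numbered 6 in the main analysis and 5 to 7 over the mice left out, also under both pseudocounts and both scalings within this range. For the calls of genes, back against abdomen in unwounded skin (373 genes) gave 209 with median-ratio scaling, 1527 on all 24 libraries, 591 without cheek mice 3 and 4, and 109 to 543 over the mice left out. Cheek against abdomen (358) gave 1266 on all 24 libraries and 81 to 693. Cheek against back (147) gave 1055, 55 without cheek mice 3 and 4, and 73 to 154. In wounds, back against abdomen (178) gave 106 with no moderation, 91 on all 24 libraries, 96 without cheek mice 3 and 4, and 22 to 285. Cheek against abdomen (1519) gave 769, 226 and 508 to 1703 likewise. Cheek against back (351) gave 182 with median-ratio scaling, 156 with quantile normalization, 119 on all 24 libraries, 36 without cheek mice 3 and 4, and 48 to 1095. Wound effects in abdomen (715) gave 67 on the 8 libraries of the site, 4741 at 0.05 and 293 to 833. In back (2074) they gave 6622 at 0.05 and 910 to 2322. In cheek (1254) they gave 248 on its 8 libraries, 317 without cheek mice 3 and 4, 5272 at 0.05 and 543 to 1503. The mean over sites (4824) gave 9045 at 0.05 and 3992 to 4793. The F test (3) gave 1 with pseudocount 0.1, 9 with pseudocount 1, 5 with either scaling, 8 with no moderation, 1 without cheek mice 3 and 4, and 1 to 315, the last without abdomen mouse 1.

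With the mouse number as a block across sites, which different animals share by number only, unwounded back differed from abdomen in 206 genes and cheek from back in 91, and in wounds the same contrasts gave 28 and 120. Lgr5 between unwounded cheek and back (adjusted p = 0.0687) and Msx1 between back and abdomen wounds (adjusted p = 0.0967) lost their calls under that block, and Lgr5 between cheek and back wounds gained one (adjusted p = 0.0473). Same-numbered mice of 2 sites did not deviate together (mean r -0.0273 in unwounded skin and -0.0507 in wounds). The wound effects without the pairing of libraries within a mouse called 1 gene in the F test and changed no call of a regulator.

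FPKM without counts leaves the counting error of Shh, at 0.02 to 0.48 FPKM in most libraries, unknown. With 4 mice per site, 2 of which stood apart in the unwounded cheek, the cheek comparisons have little precision. The labels give neither batch nor sequencing date. The causes of the changes with settings were not tested.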
